A study of Sus scrofa with 4 samples.

Results

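The calgranulin genes S100A8, S100A9 and S100A12 and the neutrophil genes LTF and MMP9 were followed in KO and WT pig thymus. All probes whose RefSeq accession belonged to 1 of these 5 genes were taken from the scanner output, which gave 7 probes of 5 genes among the 3020 genes that could be given a symbol. The genes were chosen by their KO, WT and slide differences on these arrays, so that those values are a description and no p value is given for them. The KO pigs carried a monoallelic IL2RG disruption (mIL2RG+/Δ69-368, labelled IL2RG+/-), made with TALENs against exon 2 in donor cells for nuclear transfer, and the control group is labelled wild. All samples were thymus of Minnesota miniature swine, and no further treatment is named for either group. The arrayed KO pigs were those in which a small thymus could be found, so that the KO arrays show a rudimentary organ, and it is not given in the sources used here whether both came from 1 cell colony or how old the arrayed pigs were. There were 2 arrays per genotype, with 1 sample per array and 1 channel (Cy3). Slide 1 carried KO replicate 1 with WT replicate 2, and slide 2 carried the other pair.

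Calgranulins are small calcium-binding proteins of the S100 family that fill the cytosol of neutrophils and are also made by monocytes and by stressed epithelium. S100A8 and S100A9 join as calprotectin, which withholds zinc and manganese from microbes and signals through TLR4 when it is released, and S100A12 is a ligand of AGER. LTF encodes lactoferrin, the iron-binding protein of neutrophil secondary granules and of secretions, and MMP9 encodes gelatinase B, which is stored in neutrophil tertiary granules and is also made by macrophages and other cells. The thymus holds few neutrophils beside its thymocytes. In the RefSeq gene order of the Sscrofa11.1 assembly, S100A8, S100A12 and S100A9 follow each other with no other coding gene between them.

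Values are log2 signals with the 75th percentile of the array subtracted, so that 0 is a spot as bright as that percentile and 1 unit is a 2-fold difference. They compare arrays for 1 probe and not levels between genes. All 7 probes were well above background on all 4 arrays, and no spot was saturated. The error that the scanner software gave for a spot of these probes was at most 11.6% of its signal. The targeted gene, IL2RG, was lower in KO at both of its probes, with log2 differences of -3.41 (standard error 0.27) and -4.38 (0.26). A probe was called at a Benjamini-Hochberg adjusted p under 0.05 in limma and a fold change of at least 2. Without KO replicate 1 or KO replicate 2 fewer of all tested probes met this rule than with all 4 arrays. A call lost in such a fit is therefore not by itself a trait of its gene. The smallest two-sided p that an exact permutation test allows with so few arrays is 0.333.

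All 5 genes had a lower mean in KO than in WT, but the WT arrays were far apart for 4 of them. The calgranulins and LTF were brightest in WT replicate 1 and dimmest in KO replicate 1, with KO replicate 2 and WT replicate 2 between. MMP9 had both KO arrays together below both WT arrays. Of the 7 probes, 2 met the call rule for lower in KO and 0 for higher, where the rule was met by 13.0% of all 31963 tested probes for lower and by 21.0% for higher. Both calls were MMP9. In 6 of the 7 probes both KO arrays lay below both WT arrays, which was also so for 41.0% of all tested probes. In RNA of a whole organ, fewer cells of a type and less RNA per cell cannot be told apart.

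**Figure D1:**
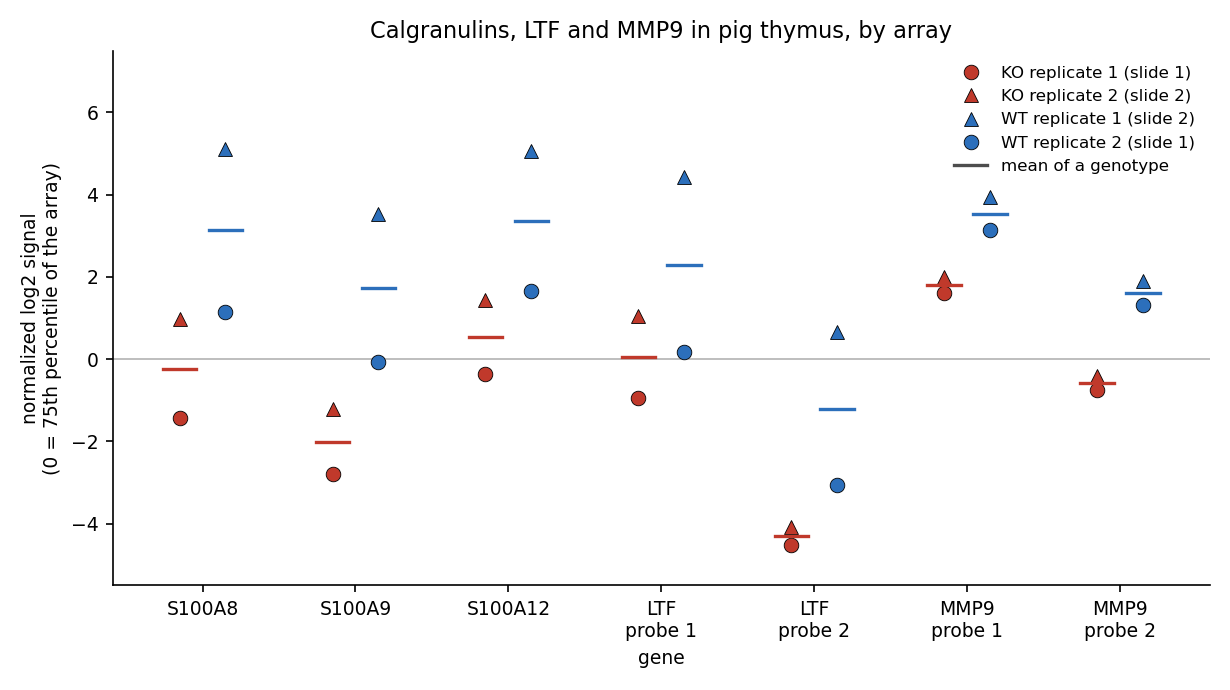
Normalized log2 signal (y axis, 0 is the 75th percentile of the array) of the 7 probes of S100A8, S100A9, S100A12, LTF and MMP9 (x axis), with 1 point per array, colour for genotype, shape for slide and a bar for the mean of each genotype (n = 2). WT replicate 1 is the highest array at every probe, and the WT arrays are 3.41 to 4.25 apart for the calgranulins and LTF and 0.60 to 0.82 apart for MMP9.

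S100A8 (probe A_72_P428729), the smaller subunit of calprotectin, measured -1.43 in KO replicate 1, 0.97 in KO replicate 2, 5.12 in WT replicate 1 and 1.14 in WT replicate 2. Before scaling these were signals of 282.8, 1361, 21510 and 1529. One WT array was thus far above the other arrays, while KO replicate 2 and WT replicate 2 were close, with a difference of -0.17. The KO mean was -0.23 ± 1.70 (SD, n = 2) and the WT mean 3.13 ± 2.81 (SD, n = 2), a log2 difference of -3.36 with a standard error of 1.57 in limma, or 10.2-fold lower in KO.

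S100A9 (A_72_P137861), the partner subunit, had -2.80 and -1.22 in KO and 3.53 and -0.06 in WT. The order of the arrays was that of S100A8, with WT replicate 1 again highest and the groups not overlapping. The log2 difference was -3.74 (standard error 1.33), or 13.4-fold lower in KO. S100A12 (A_72_P441085), also called calgranulin C, had -0.36 and 1.44 in KO and 5.07 and 1.65 in WT. The gap between KO replicate 2 and WT replicate 2 was here -0.22, and the log2 difference of the means was -2.82 (standard error 1.31). The standard errors were large against these differences, and none of the 3 calgranulins met the call rule.

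LTF was measured by 2 probes that did not order the arrays alike. The brighter probe (A_72_P088736) had -0.95 and 1.05 in KO and 4.42 and 0.17 in WT. KO replicate 2 lay above WT replicate 2 here, and the groups overlapped. Its log2 difference was -2.25 (standard error 1.59). The dimmer probe (A_72_P657796) had -4.52 and -4.09 in KO and 0.65 and -3.06 in WT, with no overlap and a log2 difference of -3.10 (standard error 1.27). Its raw signal was 33.2 and 40.7 in KO, compared with 83.3 in WT replicate 2 and 970.4 in WT replicate 1. Neither LTF probe met the call rule.

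MMP9 was the gene with the smallest difference and the least spread. Its brighter probe (A_72_P303264) had 1.61 and 1.99 in KO and 3.94 and 3.13 in WT, which gave means of 1.80 ± 0.27 (SD, n = 2) and 3.53 ± 0.58 (SD, n = 2). The log2 difference was -1.73 (standard error 0.34), or 3.33-fold lower in KO. The dimmer probe (A_72_P440951) had -0.74 and -0.41 in KO and 1.91 and 1.31 in WT. Its log2 difference was -2.19 (standard error 0.27), or 4.56-fold lower in KO. Both probes put both KO arrays more than 2-fold below both WT arrays.

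Each slide carried 1 array of each genotype, so that KO could be set against WT within a slide. On both slides all 7 probes were lower in KO. S100A8 differed by -2.57 on slide 1 and by -4.15 on slide 2, S100A9 by -2.73 and -4.75, and S100A12 by -2.01 and -3.63. The brighter LTF probe differed by -1.12 and -3.37 and the dimmer by -1.46 and -4.74. The MMP9 probes differed by -1.51 and -1.96 and by -2.06 and -2.32. The difference was thus larger on slide 2 at each of the 7 probes. With slide as a term in limma, 5 of the 7 probes met the call rule, those of the 3 calgranulins and both of MMP9, where 13.3% of all tested probes did so for lower in KO. That fit has 1 residual degree of freedom per probe, and it pairs each KO array with the WT array of the other replicate number. The slide differences of these genes were known when the genes were chosen, so that the calls of that fit are a description.

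**Figure D2:**
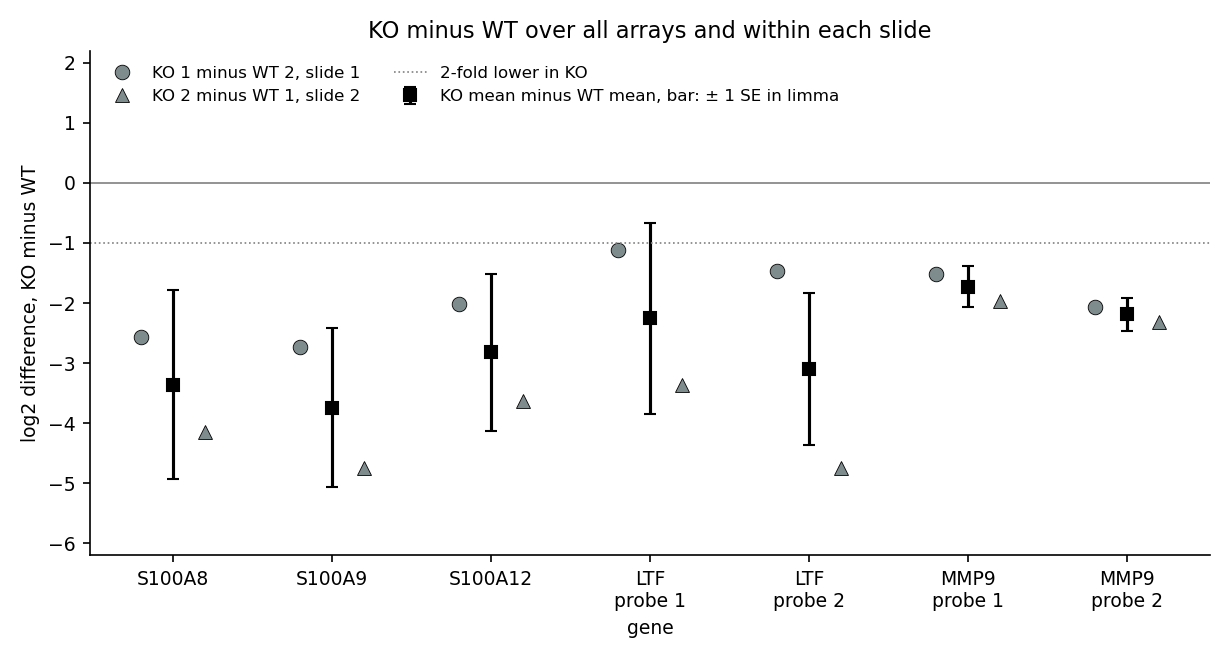
Log2 difference of KO minus WT (y axis) for the 7 probes (x axis), as the difference of the means with its standard error in limma (squares) and within slide 1 (circles) and slide 2 (triangles). Every point is below 0, and the standard error runs from 1.27 to 1.59 for the calgranulins and LTF and is 0.34 and 0.27 for MMP9.

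The slides and the samples cannot be told apart, since each slide held 1 KO and 1 WT sample and no sample was on both. Between the WT arrays, S100A8 was 15.7-fold higher on slide 2 than on slide 1, S100A9 12.1-fold, S100A12 10.6-fold and LTF 13.0-fold at its dimmer probe and more at its brighter (4.25 on the log2 scale). Between the KO arrays S100A8 was 5.28-fold, S100A9 2.99-fold, S100A12 3.48-fold and LTF 3.99-fold (brighter probe) and 1.34-fold (dimmer probe) higher on slide 2. The array on slide 2 was thus the higher one within both genotypes. MMP9 was 1.76-fold higher on slide 2 in WT and 1.30-fold in KO at its brighter probe. The difference of slide 2 minus slide 1 over both genotypes was 3.19 for S100A8 (standard error 0.46), 2.59 for S100A9 (0.57), 2.60 for S100A12 (0.47), 3.13 for LTF (0.64) and 0.60 for MMP9 (0.19).

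The spread between arrays of 1 genotype was set beside that of all probes. WT replicate 1 was at least 2-fold above WT replicate 2 at 5 of the 7 probes and at 6.36% of all tested probes. KO replicate 2 was at least 2-fold above KO replicate 1 at 4 of the 7 probes and at 1.94% of all tested probes. Both held for 4 of the 7 probes, those of the 3 calgranulins and the brighter of LTF, and for 0.826% of all tested probes. Ranked by the excess of WT replicate 1 over WT replicate 2 among 31963 probes, LTF stood at 16 and 32 with its 2 probes, S100A8 at 21, S100A9 at 39, S100A12 at 44 and MMP9 at 3006 and 4656. These shares are a description, since the slide differences of these genes were known when the genes were chosen. Over all probes, limma with slide as a term called 0 probes between the slides, with 2462 at an unadjusted p under 0.05 and a smallest adjusted p of 0.622.

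**Figure D3:**
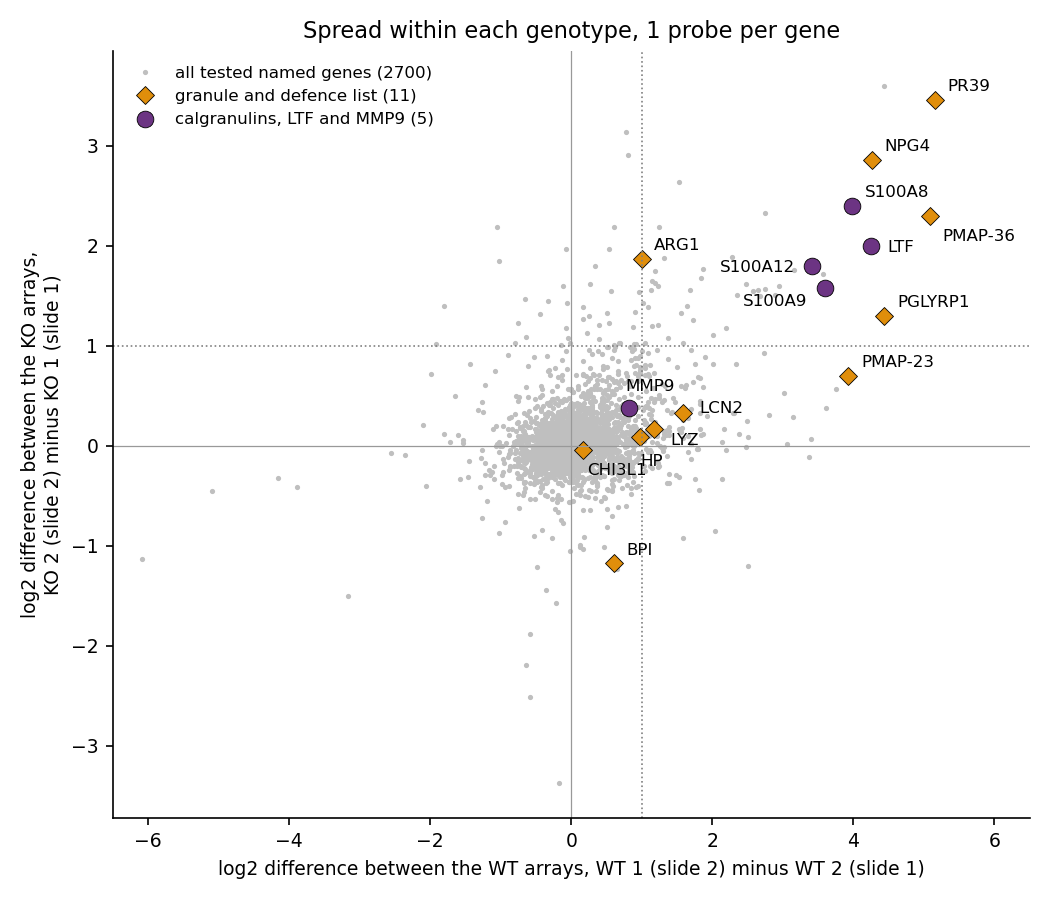
Log2 difference between the WT arrays (x axis, WT replicate 1 minus WT replicate 2) and between the KO arrays (y axis, KO replicate 2 minus KO replicate 1) for the brightest probe of 2700 tested named genes (grey), 11 genes of a granule and defence list (orange) and the 5 genes described here (purple), with dotted lines at 2-fold. S100A8, S100A9, S100A12 and LTF lie at the upper right with NPG4, PR39, PMAP-36 and PGLYRP1, and MMP9, CHI3L1, HP and LYZ lie near the mass of genes.

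The 264 probes that were at least 2-fold higher on slide 2 within both genotypes included 100 with a symbol, of 53 genes. Besides the calgranulins and LTF they held 5 of the 11 genes of the granule and defence list (NPG4, PR39, PMAP-36, PGLYRP1 and ARG1). They also held genes of fat storage, such as CIDEC, PLIN1 and DGAT2, and RETN, which encodes resistin. These 4 names were chosen after their values were seen. CIDEC was 3.16 higher in WT replicate 1 than in WT replicate 2 on the log2 scale and 1.76 higher in KO replicate 2 than in KO replicate 1, and RETN was 4.44 and 3.60 higher. The part of fat or of blood in the sampled tissue in these differences was not tested.

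The profiles of the 5 genes over the 4 arrays were compared by the Euclidean distance of their brightest probes after the mean over the arrays had been subtracted from each. S100A8 lay 0.74 from S100A9, 0.79 from S100A12 and 1.16 from LTF, and S100A12 lay 0.84 from LTF. MMP9 was 2.36 to 3.11 from the other four. Of all other named genes, the nearest to S100A8 were NPG4 (0.51), PMAP-36 (1.18) and PR39 (1.28), which encode cathelicidins, the antimicrobial peptides of pig neutrophil granules. The nearest to S100A9 were LOC396867 (0.89), NPG4 (1.24) and PMAP-36 (1.27), and those to S100A12 were PGLYRP1 (0.95), NPG4 (0.98) and PMAP-23 (1.08). PGLYRP1, a peptidoglycan recognition protein of granulocytes, was also the nearest to LTF (0.52), followed by PMAP-23 (0.95) and NPG4 (0.99). The nearest to MMP9 were other genes, LOC404703 (0.22), KRT2 (0.28), a keratin, and FXYD3 (0.32), a regulator of the sodium pump. With 4 arrays such distances only describe how close the profiles were, and not a shared order. KO replicate 2 lay below WT replicate 2 at S100A8 and above it at NPG4.

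The wider list of neutrophil granule and defence proteins had 31 genes besides the 5, of which 11 had a named probe. MPO, ELANE, PRTN3, AZU1, CTSG, CAMP and MMP8, which encode granule proteins that define neutrophils, had no named probe. In limma 1 of the 11 genes was called higher in KO, 1 was called lower and 9 were not called, with a median log2 difference of -2.05. Over all 2700 tested named genes, 25.1% were called higher and 12.6% lower. In the 4 cathelicidin genes and PGLYRP1 the highest and the lowest array were those of the calgranulins. NPG4, which encodes protegrin 4, had 1.57 and 4.43 in KO and 8.16 and 3.90 in WT, and its 3 probes gave log2 differences of -3.03, -3.0 and -3.26. Protegrin genes are close copies of each other, so that the probes of NPG4 may read the others as well.

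PR39 had -1.62 and 1.84 in KO and 5.44 and 0.28 in WT. PMAP-36 had -3.70 and -1.40 in KO and 4.22 and -0.86 in WT, and PMAP-23 had 0.34 and 1.03 in KO and 4.82 and 0.89 in WT. PGLYRP1 had -2.70 and -1.41 in KO and 2.49 and -1.95 in WT. At all of these WT replicate 1 was the highest array and KO replicate 1 the lowest, and KO replicate 2 lay above WT replicate 2 at NPG4, PR39, PMAP-23 and PGLYRP1. None was called, with adjusted p values in limma of 0.214 for NPG4, 0.333 for PR39, 0.131 for PMAP-36, 0.247 for PMAP-23 and 0.279 for PGLYRP1. With slide as a term, NPG4, PR39 and PMAP-36 met the call rule for lower in KO. These genes were also at least 2-fold higher on slide 2 within both genotypes. The list was chosen with earlier results of these data known, so that these calls are a description. Without WT replicate 2 NPG4, PMAP-36, PMAP-23 and PGLYRP1 were called lower, and without WT replicate 1 none of the 5 was.

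**Figure D4:**
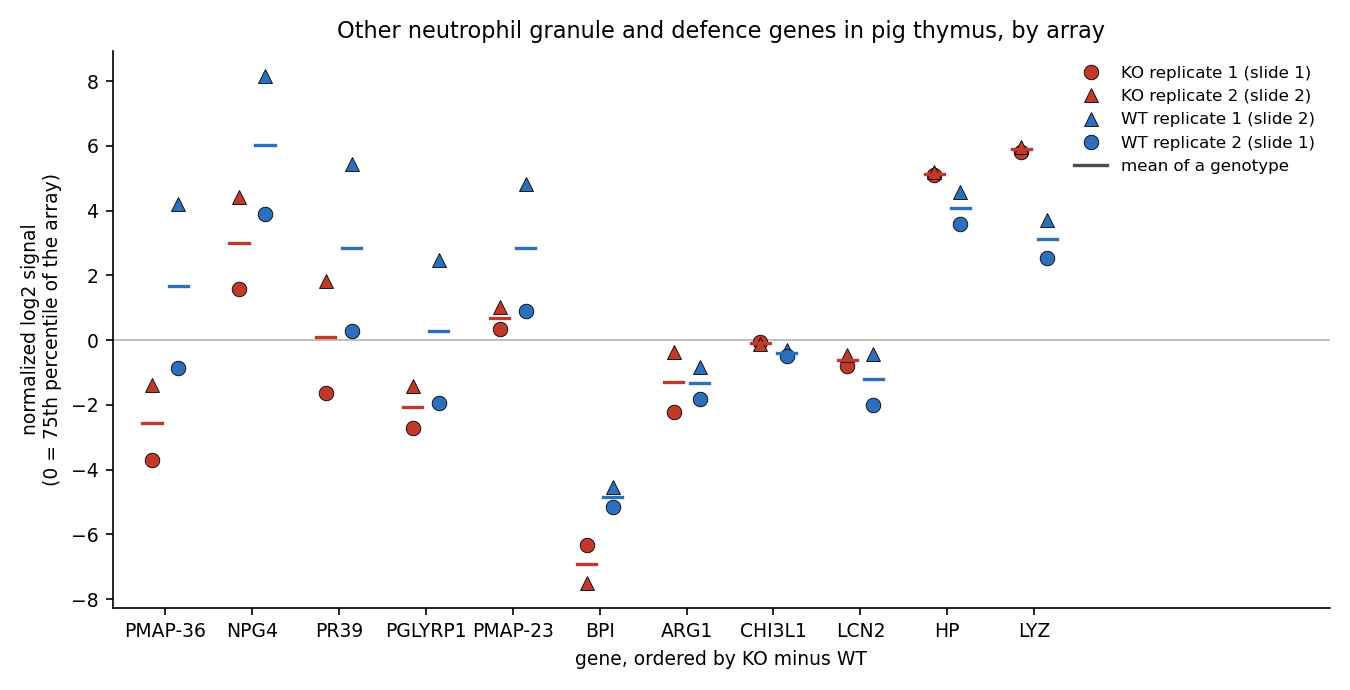
Normalized log2 signal (y axis, 0 is the 75th percentile of the array) of the brightest probe of the 11 other granule and defence genes (x axis, ordered by KO minus WT), with 1 point per array, colour for genotype, shape for slide and a bar for the mean of each genotype (n = 2). WT replicate 1 stands apart at PMAP-36, NPG4, PR39, PGLYRP1 and PMAP-23, whereas both KO arrays lie above both WT arrays at CHI3L1, HP and LYZ.

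The remaining granule genes did not share this order. LYZ, lysozyme, which macrophages make as well, had 5.81 and 5.98 in KO and 3.71 and 2.54 in WT and was called higher in KO, with a log2 difference of 2.77 (standard error 0.43, limma adjusted p = 0.00958), and its other probes gave 2.74 and 2.81. BPI, the bactericidal permeability-increasing protein, was not well above background on either KO array and had -4.55 and -5.16 in WT. It entered the test through its WT arrays only, so that a call for lower in KO follows in part from the filter. Its dimmer probe was not tested. With the main scaling BPI was at least 2.54-fold lower in KO and was called. This call was lost without KO replicate 2 or without WT replicate 1, and under the normexp background correction its log2 difference was -0.55. LCN2, neutrophil gelatinase-associated lipocalin, had -0.79 and -0.46 in KO and -0.42 and -2.0 in WT and was not called. HP, CHI3L1 and ARG1 were not called either, with log2 differences of 1.07, 0.31 and 0.04, and the last turned to -0.22 when arrays were scaled to their median. HP was called higher with quantile normalization (1.28) and with normexp (1.1), and without WT replicate 1 both HP (1.56) and LCN2 (1.37) were.

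The defining markers of neutrophils were therefore measured in part. Of 18 genes on that list 7 had a named probe, and 4 of these were S100A8, S100A9, S100A12 and LTF. Their summed linear signal, in units of the 75th percentile of the array, reached 2.56 and 8.28 in KO, 108 in WT replicate 1 and 7.97 in WT replicate 2. Without the 4 genes, LCN2, PGLYRP1 and BPI summed to 0.743 and 1.11 in KO and to 6.40 and 0.536 in WT. In WT replicate 1 this sum mostly reads PGLYRP1 (log2 signal 2.49, against -0.42 for LCN2 and -4.55 for BPI). LCN2 was the brightest of them in KO replicate 2, with -0.46 there and -2.0 in WT replicate 2. In both sums WT replicate 1 was the highest array and KO replicate 2 lay above WT replicate 2. The number of neutrophils in the samples was not measured.

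Markers of macrophages and thymocytes moved with the genotype, and the part of other cells in the differences of the 5 genes was not tested. Over all 2700 tested named genes, 25.1% were called higher in KO and 12.6% lower. All 9 macrophage genes with a named probe were called higher in KO, such as MRC1 by 3.05 (standard error 0.29, limma adjusted p = 0.00348), and their signals summed to 233 and 297 in KO and to 61.7 and 51.5 in WT. LYZ, which macrophages make as well, was by far the brightest of the 5 monocyte genes (5.81 and 5.98 in KO, 3.71 and 2.54 in WT). Their sum thus mostly reads LYZ. Of 5 monocyte genes 3 were called higher, with sums of 59.5 and 68.9 in KO and 15.2 and 6.80 in WT. Without KO replicate 2 the count fell to 1, and without KO replicate 1 or KO replicate 2 that of the macrophage genes was 8. FCN1, a ficolin of monocytes and neutrophils, had -2.33 and -0.78 in KO and -0.49 and -3.13 in WT and was not called. All 13 thymocyte genes were called lower, with sums of 37.5 and 36.6 in KO and 229 and 310 in WT. Of these, RAG2 was well above background on only 1 KO array and entered the test through its WT arrays. Its call follows in part from the filter. WT replicate 1 did not stand above the other arrays in the macrophage, monocyte or thymocyte sums.

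Of all tested named genes 25.1% were called higher in KO, and the count of thymic epithelium below is near that share. Of 4 eosinophil and mast cell genes 2 were called higher, with sums of 9.41 and 9.53 in KO and 7.04 and 4.07 in WT. This count changed with an array left out. MS4A2 was higher by 2.62, and by 2.71 without KO replicate 1 and 2.53 without KO replicate 2. RNASE4 was higher by 1.29, and by 1.54 and 1.05 in these fits. Without WT replicate 1 CCR3 was higher by 1.77 and KIT by 1.01. Of 5 genes of squamous and glandular epithelium 3 were called higher (233 and 222 in KO, 71.8 and 48.1 in WT), or 2 without KO replicate 1 or KO replicate 2, and of 4 thymic epithelium genes 1 was (259 and 241 in KO, 96.5 and 68.1 in WT). KRT8 and EPCAM are on both epithelium lists. KRT8 was the brightest gene of each (log2 signals of 7.61 and 7.54 in KO, 5.65 and 4.76 in WT), so that it weighs most in both sums. HBE1 was the only 1 of 12 listed red blood cell genes with a named probe and was not called. Its log2 signals were -2.95 and -2.83 in KO and -4.86 and -3.06 in WT. The log2 difference was 1.07, or 1.97 without WT replicate 2.

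Genes that receive or pass on the signal of calgranulins were in part higher in KO. Of 8 tested receptor and signalling genes 4 were called higher in KO and 0 lower, with a median log2 difference of 0.95. Of all tested named genes 25.1% were called higher and 12.6% lower. TLR4, which binds S100A8 and S100A9, had 0.44 and 0.37 in KO and -1.42 and -1.76 in WT. It rose by 2.00 (standard error 0.19, limma adjusted p = 0.00343). Its cofactors rose as well, LY96 by 1.13 (standard error 0.19) and CD14 by 1.98 (0.33), and so did the scavenger receptor CD36, by 2.66 (0.61). CD14 is also on the monocyte list. CD36 was also higher on slide 2 than on slide 1, by 1.08 between the WT arrays and 1.39 between the KO arrays. AGER, the receptor of S100A12, differed by 0.77 (standard error 0.16, limma adjusted p = 0.0195), short of 2-fold. ITGB2, MYD88 and BSG were not called. The call of LY96 was lost without either KO array and that of CD14 without KO replicate 2, and CD36 was no longer called without KO replicate 2 or without WT replicate 2.

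Other members of the S100 family were also measured. Of 5 with a tested probe, 3 were called higher in KO and 0 lower, with a median log2 difference of 1.63. Of all tested named genes 25.1% were called higher and 12.6% lower. S100A14 rose by 2.31 (standard error 0.29, limma adjusted p = 0.00608), S100A16 by 1.67 (0.26, adjusted p = 0.0103) and S100A11 by 1.63 (0.18, adjusted p = 0.00461). S100A6 had 6.65 and 6.54 in KO and 6.04 and 5.48 in WT, which differ by 0.84, and S100G had -0.19. Without KO replicate 1 or KO replicate 2 S100A16 was no longer called, and without WT replicate 1 S100A6 was called higher, by 1.12. At none of the 5 was WT replicate 1 at least 2-fold above WT replicate 2.

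Among genes that attract neutrophils, drive their growth or act as receptors, 6 were tested, of which 4 were called higher in KO and 0 lower. Of all tested named genes 25.1% were called higher and 12.6% lower. CXCL2, a neutrophil chemokine, had 0.31 and 0.59 in KO and -1.74 and -1.52 in WT, and rose by 2.08 (standard error 0.19, limma adjusted p = 0.00325). CXCL8, the main neutrophil chemokine of pigs and humans, rose by 1.11 (standard error 0.20, limma adjusted p = 0.0149), and its call was lost without KO replicate 1, KO replicate 2 or WT replicate 1. CSF2, a growth factor of granulocytes and macrophages, rose by 1.98 (0.22, adjusted p = 0.00475), and the complement receptor C5AR1 by 1.63 (0.24, adjusted p = 0.0086), which was lost without KO replicate 2. CSF3, the growth factor of neutrophils, had -4.57 and -4.44 in KO and -3.87 in both WT arrays, with a difference of -0.63 that is short of 2-fold. AMCF-II was not called, and IL17A was not well above background on any array. The receptors CSF3R, CXCR1 and CXCR2 had no named probe.

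Of the transcription factors of granulocytes, CEBPB and SPI1 had a named probe, and both were called higher, by 1.88 (standard error 0.25, limma adjusted p = 0.00653) and 1.70 (0.19, adjusted p = 0.00477). Both were dim in WT, and under the normexp background correction they were 0.70 and 0.62 and not called. CYBA and NCF1, subunits of the NADPH oxidase that makes the oxidative burst, were not called, with log2 differences of 0.63 and 0.90, and NCF1 was called higher without WT replicate 1 (1.15).

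MMP9 cuts gelatin and type IV collagen, and its relatives and their inhibitors act on the same matrix. Of 6 such genes tested, 1 was called higher in KO and 0 lower, where 25.1% and 12.6% of all tested named genes were. MMP14, a membrane-bound metalloproteinase, rose by 1.66 (standard error 0.34, limma adjusted p = 0.019), a call that was lost without either KO array. MMP2, gelatinase A, had 3.08 and 3.86 in KO and 2.48 and 0.98 in WT and was not called, but it was called higher with slide as a term (limma adjusted p = 0.0167), with normexp (1.72) and without WT replicate 1 (2.49). The inhibitors TIMP1 and TIMP2 had differences of 0.77 and -0.77, and TIMP2 was called lower when arrays were scaled to their median. MMP12, the elastase of macrophages, and MMP1 were not called, and MMP12 was called higher without WT replicate 2 (1.51).

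Lactoferrin belongs to the transferrin family. Of 7 genes of iron binding and transport, 1 was called lower and 0 higher, where 12.6% and 25.1% of all tested named genes were. TF, transferrin, had -1.58 and -1.47 in KO and -0.75 and -0.27 in WT, with a difference of -1.01 (standard error 0.22, limma adjusted p = 0.0238). This call was lost without KO replicate 1, KO replicate 2 or WT replicate 2. TFRC, FTH1, FTL, SLC11A1, HAMP and CP were not called.

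The size of each difference depended on which WT array was kept. Without WT replicate 1, the log2 difference was -1.37 for S100A8, -1.94 for S100A9, -1.12 for S100A12 and -0.12 for LTF at its brighter probe, and 3 of the 7 probes met the call rule (the dimmer of LTF and both of MMP9), where 16.1% of all tested probes did so for lower in KO. Without WT replicate 2 these values were -5.35, -5.54, -4.53 and -4.37, and all 7 probes met the rule, where 11.7% of all tested probes did so for lower in KO. MMP9 ranged from -2.14 to -1.32 at its brighter probe, which did not meet the rule without KO replicate 1 or without KO replicate 2, and from -2.49 to -1.89 at its dimmer probe, which met it each time.

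**Figure D5:**
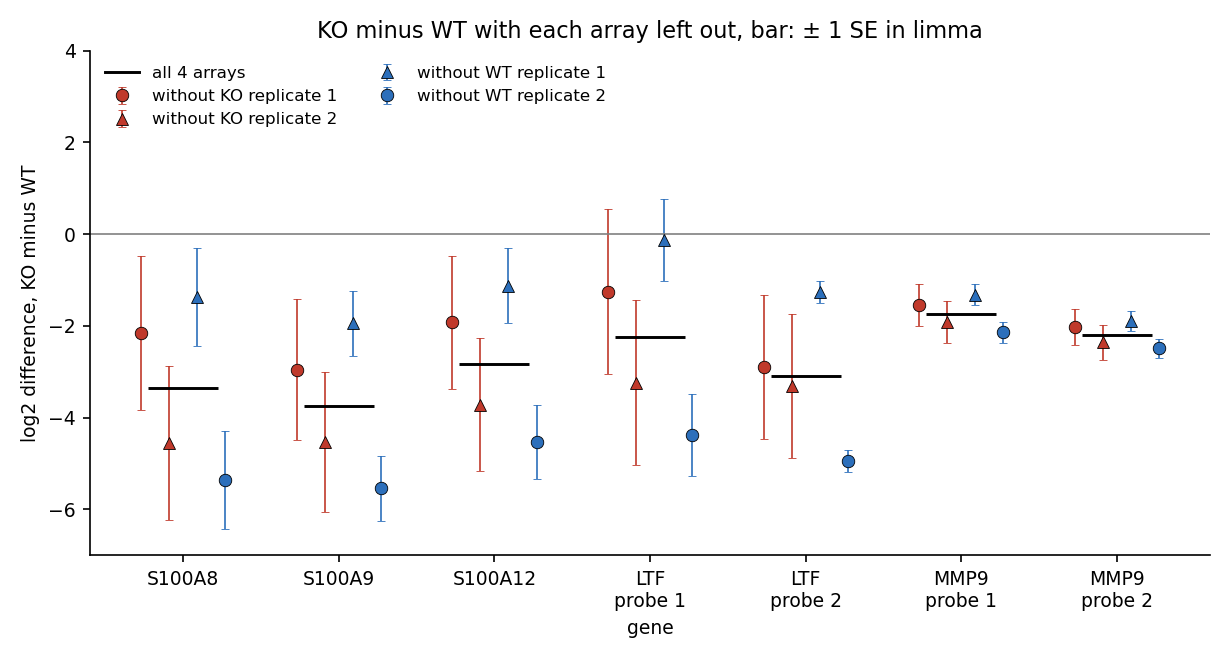
Log2 difference of KO minus WT (y axis) for the 7 probes (x axis) with each array left out in turn, with its standard error in limma (bars), and with all 4 arrays (black lines). Without WT replicate 1 the brighter LTF probe is at -0.12 and S100A8 at -1.37, and without WT replicate 2 they are at -4.37 and -5.35, whereas MMP9 stays between -2.49 and -1.32.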

How the data were processed

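Thymus RNA was hybridised to 1-colour porcine Agilent arrays. The authors deposited the intensity values of each array as Agilent Feature Extraction output (version 11.0.1.1 in the submitters' processing notes), in which the processed signal has the background subtracted and is not normalized between arrays. Log2 values of 27974 probes, recorded as quantile normalized, were deposited by the authors as well and served as an alternative. This alternative is thus close to the quantile normalization run here and is no separate check of it. The methods describe Cy-3 and Cy-5 labelling, whereas the labels and the output hold 1 channel. They name GeneSpring and no normalization.

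Control spots and outlier spots were dropped, the processed signal was put on the log2 scale minus its 75th percentile per array, and repeated spots were averaged. The fit took the 31963 probes that both arrays of KO or both of WT showed well above background, with lmFit and eBayes (limma 3.58.1, R 4.3.3). Python 3.11.15 with pandas 2.3.3 and matplotlib 3.10.9 made the tables and figures. Names came from the RefSeq table of Sscrofa11.1 (6686 of 7111 probes with a RefSeq accession matched a symbol), without coordinates. Only 15.3% of the 43603 different probes thus had a name, and gene counts and nearest genes cover these alone. A gene was represented by its brightest probe. For a probe below that level on all arrays of a genotype the fold is a bound, the brighter mean set against, per dim array, the higher of its own signal and the lowest one that counted as measured. Named genes were the 5, up to 6 genes per list with the largest difference, and the 3 nearest by profile per gene. Some genes were left out of the lists and are not reported here. Members and lists were chosen with earlier results of these data known. The labels number the replicates without saying that each is a separate animal, so that p values measure only the spread between these arrays. Alternatives were quantile normalization, median scaling, normexp with an offset of 50 on the median spot signal (the mean signal was planned), the deposited log2 table, other filters on dim probes, slide or replicate number as a term, an intensity trend, the methods' t-test, a 4-fold threshold, each array left out, and, added after the data were seen, slide as a term with another scaling, background correction or source. The procedure was tested on simulated data.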

Additional observations from a re-analysis of the deposited data

How the results depend on the processing

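None of the 5 genes changed direction in limma under the alternatives run. Leaving out 1 array moved the log2 difference from -5.35 to -1.37 for S100A8, -5.54 to -1.94 for S100A9, -4.53 to -1.12 for S100A12, -4.37 to -0.12 for LTF and -2.14 to -1.32 for MMP9. With slide as a term 5 of the 7 probes were called lower, against 2 without it, where 13.3% and 13.0% of all tested probes were. With that term S100A8 (-3.36), S100A9 (-3.74) and S100A12 (-2.82) met the call rule. The slide differences of the genes were known when the genes were chosen, so that all calls with slide as a term are a description. Added after the data were seen, slide as a term called 5 probes with quantile normalization and 7 with median scaling, with normexp and with the deposited log2 table, where 15.3%, 20.3%, 8.54% and 14.1% of all tested probes were called lower. In that order S100A8 was -3.30, -3.62, -3.18 and -3.30, S100A9 -3.78, -4.0, -3.31 and -3.77, and S100A12 -2.73, -3.08, -2.72 and -2.74, all past the threshold. LTF passed it in the last 3 of these, with -2.50, -2.11 and -2.20. The methods' t-test called 0 of the 7 probes with the Bonferroni correction, which called 0 of all tested probes. It called 0 of the 7 with Benjamini-Hochberg adjustment, where 2.45% of all tested probes were called lower. MMP9 (-1.73) was lost in both. In limma 1 probe passed 4-fold, and the share of all probes at that threshold is not given here. The cause of these changes was not tested.

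The replicate block, the fit with the replicate number as a term, called 2 of the 7 probes lower, where 12.6% of all tested probes were called lower. Arrays of the same number deviated in opposite ways (a correlation of -0.29 over probes), and the crossed pairing is the slide term, with 5 calls. Over all probes limma called 6712 higher and 4171 lower, and 61.7% of the calls were increases. With median scaling, which moved the median log2 difference of all tested probes from -0.06 to -0.32, 5810 were higher and 6335 lower (47.8% increases), and CXCL8 and LY96 were no longer called. With normexp 3909 were higher and 2702 lower, and BPI, CEBPB, CXCL8, SPI1, SIGLEC1 and TF lost their calls, while HP and MMP2 gained one. With quantile normalization HP and S100A6 gained one, and with median scaling TIMP2 did. The methods' t-test called 722 higher and 783 lower with Benjamini-Hochberg and 0 with Bonferroni. The number of arrays limits the precision.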
